A study of Mus musculus with 2 samples.

Results

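Cxcl12, Cxcl13 and Cxcl14 are CXC chemokines, and Cxcr4 and Ackr3 are the receptors of Cxcl12. The 5 genes were taken by symbol from the 31053 genes of the deposited tables, and each was followed through every cell class of both libraries. They are usually grouped as homeostatic chemokines because they are made in resting tissues; both libraries come from inflamed skin, so that name was not checked here. Cxcl12 was held mainly by fibroblast-like cells, Cxcl13 by monocyte/macrophage-like cells and Cxcl14 by keratinocyte-like cells. Relative to wild type (WT), Cxcl13 and Cxcl12 were lower in the Chrna5 knockout (KO) library in the classes that held most of them, the 2 receptors were higher, and Cxcl14 was nearly level.

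Dorsal skin of female mice was profiled by droplet single-cell RNA sequencing, with 1 library of Chrna5 KO and 1 of WT mice, all given imiquimod, which activates Toll-like receptor signalling and inflames mouse skin in a way that resembles psoriasis. Chrna5 encodes a nicotinic acetylcholine receptor subunit, and the KO line had been crossed back to C57BL/6N for over 10 generations. Per the labels, 62.5 mg of 5% cream went onto the shaved back on 6 days and skin was taken on day 7 at 6 to 8 weeks of age. The tissue was digested with collagenase and cells that excluded a dead-cell dye were sorted. The labels give 5 mice per experimental group, do not say whether mice were pooled, and name both C57BL/6N and C57BL/6J. A group given only the cream base is mentioned there and not analysed here. With 1 library per genotype, no difference below has a replicate check; every interval is a 95% interval of counting error alone.

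Chemokines act through G protein-coupled receptors that steer and retain cells. CXCL12 signals through CXCR4, whereas ACKR3 binds CXCL12, does not couple to G proteins in the classical way and takes the ligand up, which lowers its amount outside the cell. CXCL13 attracts B cells and follicular helper T cells through CXCR5, and CXCL14 is made constitutively by epithelia such as the epidermis.

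The 3 ligand genes lie on different chromosomes. Cxcl12 (ENSMUSG00000061353) is on chromosome 6, 117168535 to 117181367, plus strand. Cxcl13 (ENSMUSG00000023078) is on chromosome 5, 95956951 to 95961068, plus strand, and Cxcl14 (ENSMUSG00000021508) on chromosome 13, 56288643 to 56296551, minus strand. The receptors are both on chromosome 1, Cxcr4 (ENSMUSG00000045382) at 128588199 to 128592293 on the minus strand and Ackr3 (ENSMUSG00000044337) at 90203980 to 90216751 on the plus strand. All are protein coding (GENCODE vM21, mm10).

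The 250 bases before the RefSeq start (GRCm38.p6) are shown for the 3 ligands because each of them was held mainly by a different cell class. Capitals mark matches, on either strand, to a TATA box (TATAAA), a GC box (GGGCGG) or a kappaB-type motif (GGGA and CC with any 4 bases between them).
Cxcl12, chr6:117168285-117168534, plus strand: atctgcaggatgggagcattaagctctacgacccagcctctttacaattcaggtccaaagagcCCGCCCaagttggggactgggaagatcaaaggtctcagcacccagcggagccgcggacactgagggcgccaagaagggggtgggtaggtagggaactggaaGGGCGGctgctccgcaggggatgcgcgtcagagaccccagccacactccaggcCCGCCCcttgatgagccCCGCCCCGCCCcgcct
Cxcl13, chr5:95956689-95956938, plus strand: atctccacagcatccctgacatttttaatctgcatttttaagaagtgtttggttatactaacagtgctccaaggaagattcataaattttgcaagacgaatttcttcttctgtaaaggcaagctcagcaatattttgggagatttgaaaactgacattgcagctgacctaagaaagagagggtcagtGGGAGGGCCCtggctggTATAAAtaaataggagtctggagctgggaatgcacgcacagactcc
Cxcl14, chr13:56296552-56296801, minus strand: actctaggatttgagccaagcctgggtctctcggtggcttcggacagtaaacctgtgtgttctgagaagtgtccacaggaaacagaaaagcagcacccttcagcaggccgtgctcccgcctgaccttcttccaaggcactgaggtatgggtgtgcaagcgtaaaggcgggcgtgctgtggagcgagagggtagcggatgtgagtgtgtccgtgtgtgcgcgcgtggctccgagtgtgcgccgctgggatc
The Cxcl12 window held 5 GC boxes, the last pair sharing a base, and no match to the other motifs, with a GC content of 64.4%. Cxcl13 had a TATAAA match 46 bases and a kappaB-type match 63 bases before the start, no GC box, and a GC content of 42%. None of the 3 motifs occurred in the Cxcl14 window, with a GC content of 59.6%. Over 32851 RefSeq promoters of the same length, TATAAA was found in 12.4%, GGGCGG in 32.7% and the kappaB-type motif in 17.6%. A match is a description of letters and not a site of binding.

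The KO library held 10886 barcodes and 123839924 UMIs (unique molecular identifiers, the counted RNA molecules), and the WT library 14557 barcodes and 147260653 UMIs. After filtering, 10233 KO cells with a median of 6374 UMIs and 13938 WT cells with a median of 4603 UMIs remained. Kept cells under 1000 UMIs made up 6.14% in KO and 16.6% in WT, and 49 barcodes occurred in both libraries. Chrna5 itself gave 6 UMIs in KO and 12 in WT, and these counts do not check the labels, because the sources used here do not state which part of the gene was deleted. Cells were put in classes by marker genes that exclude the 5 chemokine genes. In the KO library this gave 2834 keratinocyte-like, 3134 fibroblast-like, 788 monocyte/macrophage-like and 438 T-like cells, and in the WT library 4774 keratinocyte-like, 2675 fibroblast-like, 926 monocyte/macrophage-like and 181 T-like cells. Every marker of these 4 classes was detected in both libraries. Droplets with no class made up 16.2% of KO and 30.5% of WT cells, and droplets with the markers of several classes 4.398% in KO and 4.74% in WT. Levels are given as CPM, the standard scaling of a gene's UMIs by all UMIs of the same cells to a total that is common to every class and library.

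Some RNA in a droplet can come from the suspension and not from its cell. Droplets under 1000 UMIs that fell in no class, 437 in KO and 2062 in WT, were read beside the classes. The keratinocyte-like class required at least 40 UMIs of its panel, so shallow keratinocytes can be among these droplets. Their levels are therefore not a measure of suspension RNA alone, which matters most for Cxcl14. The low-UMI droplets held Cxcl13 at 15.0 CPM in KO and 347 CPM in WT. For the other genes these droplets were closer, with Cxcl12 at 105 CPM in KO and 110 in WT, Cxcl14 at 187 in KO and 176 in WT, Cxcr4 at 27.1 in KO and 11.04 in WT and Ackr3 at 12.0 in KO and 10.3 in WT. Cxcl13 was thus the 1 gene of the 5 that was far higher in such WT droplets than in the KO ones.

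Summed over all kept cells, Cxcl12 stood at 62.9 CPM in KO and 108 in WT, Cxcl13 at 34.8 in KO and 235 in WT, and Cxcl14 at 183 in KO and 215 in WT. Cxcr4 stood at 25.5 CPM in KO and 10.8 in WT, and Ackr3 at 28.0 in KO and 11.1 in WT. In such sums, fewer cells of a type and less RNA per cell cannot be told apart, so the classes are given next.

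**Figure D1:**
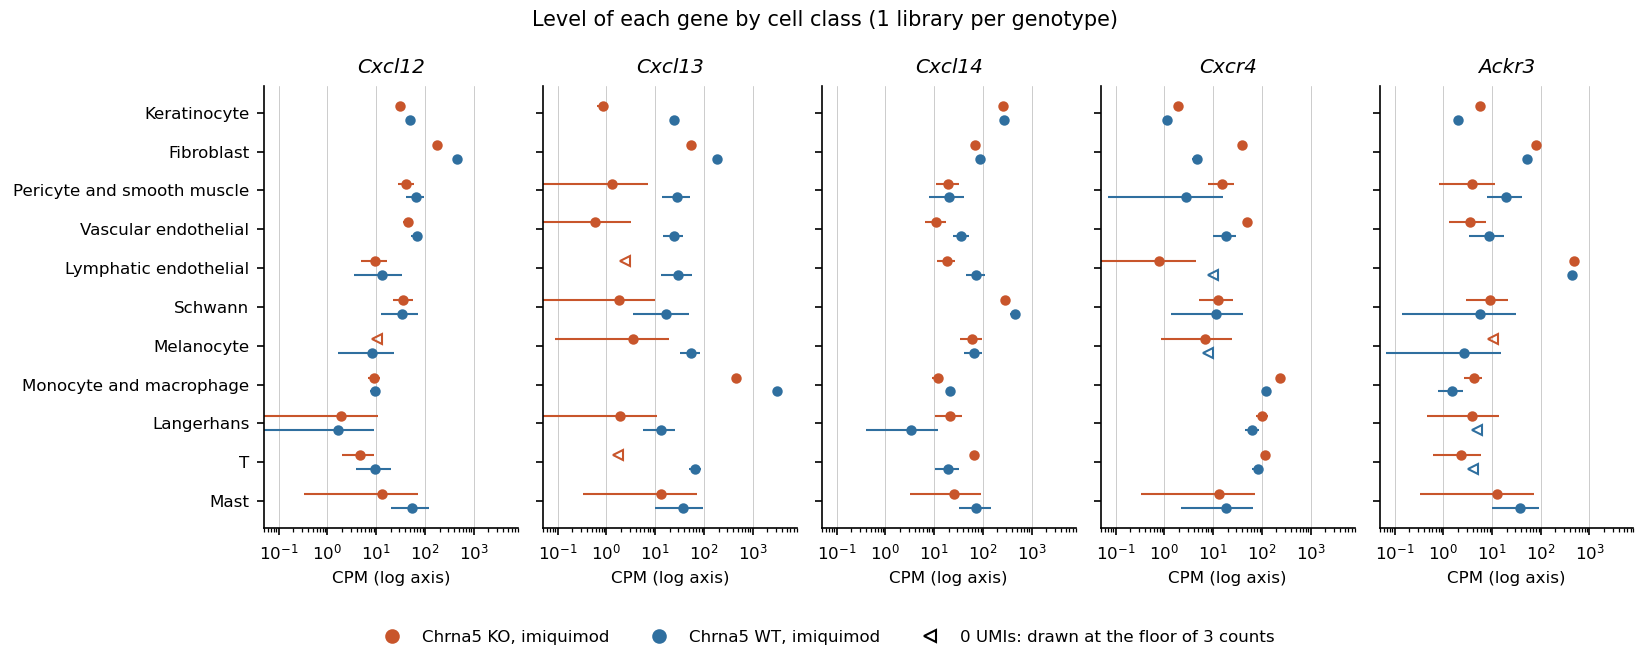
Level of each gene (CPM, log axis) in 11 cell classes of the KO (orange) and WT (blue) libraries. Points are sums over the cells of a class, lines are exact 95% Poisson intervals and open triangles mark 0 UMIs, drawn at 3 counts. The highest class was fibroblast for Cxcl12, monocyte and macrophage for Cxcl13 and Cxcr4, Schwann for Cxcl14 and lymphatic endothelial for Ackr3, in both libraries.

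Cxcl12 was lower in the KO library in fibroblast-like cells, the class that held 61.8% of its UMIs in KO and 59.7% in WT. It stood at 181 CPM in KO (4764 UMIs, 176 to 186) and at 460 CPM in WT (9442 UMIs, 451 to 470). The intervals lay far apart, and the ratio of KO over WT was 0.393 (0.3796 to 0.407), 2.54-fold lower in KO. With every cell down-sampled to 2000 UMIs (thinned), a step that omits the 125 KO and 154 WT fibroblast-like cells below that depth, 23.7% of KO cells (22.2 to 25.3) and 43.0% of WT cells (41.0 to 44.9) had a Cxcl12 UMI. Unthinned shares were 40.4% in KO and 63.0% in WT, at median depths of 6390 UMIs in KO and 6978 in WT. In monocyte/macrophage-like cells, a class not known as a source of Cxcl12, the thinned shares were 0.717% in KO and 1.64% in WT, at median depths of 6542.5 UMIs in KO and 8257.5 in WT. The fibroblast share thus stood far above that level in both libraries.

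Cxcl12 was much lower in every other of the 11 plotted classes. Vascular endothelial-like cells were second with 45.9 CPM in KO and 67.9 CPM in WT, followed by pericyte-like cells with 41.6 in KO and 65.0 in WT, with overlapping intervals between these 2 classes in each library. Schwann-like cells came next in KO with 36.4 CPM, against 34.0 CPM in WT. Keratinocyte-like cells had 30.8 CPM in KO and 48.6 in WT, a ratio of 0.635 (0.603 to 0.668), and within them the outer follicle subset was highest, at 53.9 CPM in KO and 134 in WT. Of these classes and this subset, all lay below the low-UMI droplets, 105 CPM in KO and 110 in WT, except in the WT outer follicle. The thinned share of keratinocyte-like cells with a Cxcl12 UMI was 7.12% in KO and 12.8% in WT. It was thus above the 0.717% in KO and 1.64% in WT of monocyte/macrophage-like cells. Keratinocyte-like cells held 27.8% of all Cxcl12 UMIs in KO and 30.6% in WT, and how much came from the suspension was not tested. Monocyte/macrophage-like cells were level, with 9.04 CPM in KO and 9.46 in WT.

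Within the fibroblast-like class, Cxcl12 was lower in KO in each of the 4 marker subsets. Cells scored for Pi16 and Dpp4, genes of fascial and adventitial fibroblasts, had 372 CPM in KO and 643 in WT, a ratio of 0.579 (0.550 to 0.609). Cells above the class mean for no subset panel had 237 CPM in KO and 465 in WT, a ratio of 0.509. The ratios were smaller in the 2 subsets with less Cxcl12. Cells scored for Fmod and Tnmd, genes of fascia and tendon, had 44.9 CPM in KO and 290 in WT, a ratio of 0.155 (0.121 to 0.198). Cells scored for dermal papilla genes had 13.7 CPM in KO and 89.5 in WT, a ratio of 0.153 (0.122 to 0.191). The KO levels of both subsets and the WT level of the second lay below the low-UMI droplets, 105 CPM in KO and 110 in WT. The dermal papilla sum rests on few deep cells that are poor in fibroblast genes. Cells of cluster 12 (led by Serpine2, Dio2 and Pappa2), 142 of its 422 KO and 44 of its 321 WT cells, held 84.0% of its UMIs in KO and 53.9% in WT. Their 8-gene fibroblast panel stood at 573 CPM in KO and 501 in WT, and whether they are fibroblasts was not tested. The other cells of the subset had that panel at 9130 CPM in KO and 8703 in WT. In those other cells Cxcl12 had 59.9 CPM in KO and 163 in WT, a ratio of 0.367 (0.282 to 0.475), and over all fibroblast-like cells without the dermal papilla subset the ratio was 0.498 (0.481 to 0.516). Both of these were computed after seeing the data. Whether the subsets differ in their ratio was not tested.

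Cell by cell, the Pi16 and Dpp4 subset held fewer Cxcl12 UMIs in KO. No UMI was found in 42.5% of KO and 24.4% of WT cells of that subset, and 57 of 959 KO cells but 142 of 824 WT cells had 10 or more. The range above 29 UMIs held 3 KO and 7 WT cells, although the single highest cell had 61 UMIs in KO and 44 in WT. After thinning, 34.7% of KO and 54.2% of WT cells of the subset had a UMI, and 2.45% of KO and 4.403% of WT cells had 5 or more.

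The fibroblast-like class was made of different cell clusters in the 2 libraries. Clusters 7 (led by Grem1, Lif and Mmp3) and 13 (Ifi205, Ptx3 and Has1) held 799 and 737 of the KO cells, against 27 and 162 of the WT cells. Clusters 18 (Grem1, Mmp3 and Ctsk) and 14 (Cpxm1, Ifi205 and Rarres2) held 8 and 11 of the KO cells, against 785 and 553 of the WT cells. Levels by cluster are sums over all cells of the cluster, including the few outside the class. In clusters with at least 50 cells in both libraries the direction was mixed. Cxcl12 was higher in KO in cluster 13, with 580 CPM in KO and 445 in WT (ratio 1.30, 1.18 to 1.44). It was lower in KO in cluster 23 (Col3a1, Col1a1 and Cilp), with 154 CPM in KO and 435 in WT (0.355, 0.317 to 0.396). Cluster 8 (Col3a1, Ctsk and Has1) had 52.1 CPM in KO and 379 in WT (0.138, 0.110 to 0.171). Cluster 22 (Coch, Aspn and Fmod) had 53.6 CPM in KO and 207 in WT (0.258, 0.194 to 0.342). The clusters that were nearly private to a library also differed in level, with 168 CPM in cluster 7 of KO, and 380 and 814 CPM in clusters 18 and 14 of WT. Cluster makeup moved with the class ratio, and its part in that ratio was not tested.

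**Figure D2:**
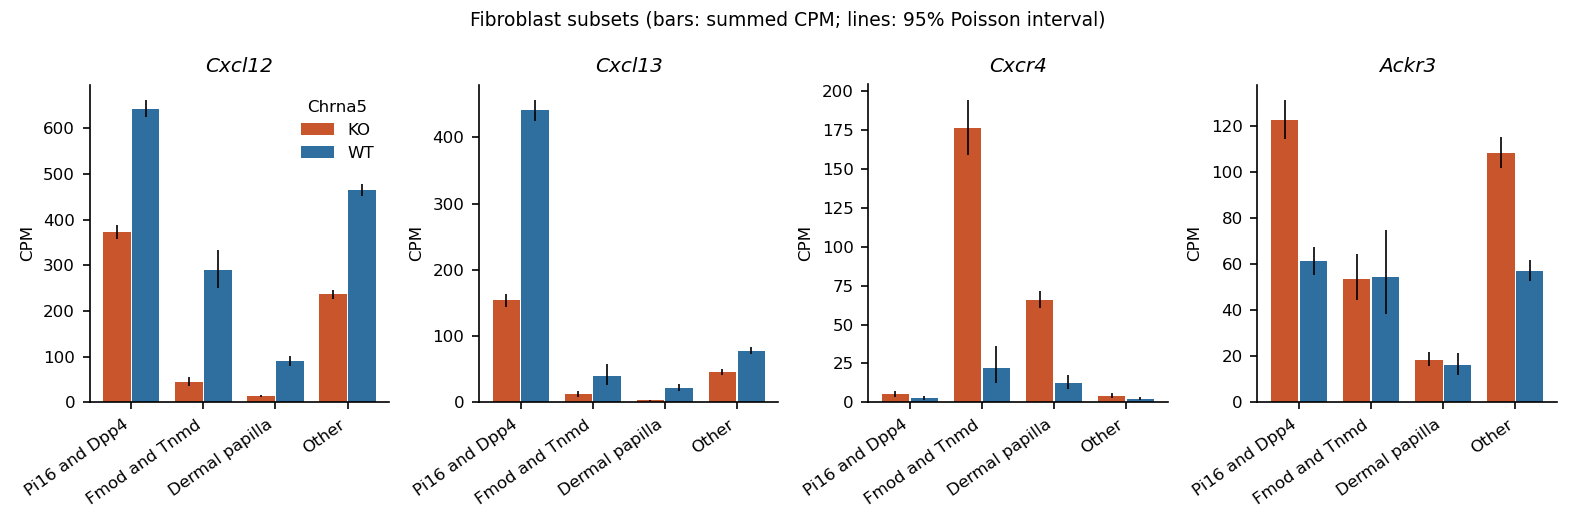
Cxcl12, Cxcl13, Cxcr4 and Ackr3 (CPM, linear axes that differ between panels) in the 4 marker subsets of fibroblast-like cells, KO left of WT. Bars are sums over the subset and lines exact 95% Poisson intervals. Cxcl12 was lower in KO in all 4 subsets, while Cxcr4 was highest in the Fmod and Tnmd subset of KO, at 176 CPM.

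Of the 5 genes, Cxcl13 had the lowest ratio of KO over WT. Monocyte/macrophage-like cells held 58.5% of its UMIs in KO and 73.9% in WT, and their level was 459 CPM in KO (2490 UMIs, 441 to 478), against 3116 CPM in WT (25354 UMIs). The ratio was 0.147 (0.141 to 0.154). The share of such cells with a Cxcl13 UMI differed far less than the level. After thinning to 2000 UMIs, which left out 91 KO and 132 WT cells, it was 19.8% in KO (16.9 to 23.0) and 21.3% in WT (18.5 to 24.3), with overlapping intervals. Unthinned, the shares were 22.7% in KO and 33.2% in WT. In keratinocyte-like cells, set beside them as a class without a known role in making Cxcl13, the thinned shares were 0.177% in KO and 8.03% in WT and the unthinned ones 1.31% in KO and 19.5% in WT, at median depths of 19187.5 UMIs in KO and 12181 in WT. The WT share in macrophages thus stood nearer to its background than the KO share did.

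Most Cxcl13 sat in the subset scored for Mrc1 and Pf4, markers of resident perivascular macrophages. It had 1182 CPM in KO and 7856 CPM in WT, a ratio of 0.151 (0.143 to 0.158). The MHC class II high subset had 108 CPM in KO and 341 in WT (ratio 0.318), and the inflammatory monocyte subset 128 in KO and 412 in WT (0.311). In WT the MHC class II high level was below that of the low-UMI droplets (347 CPM). The thinned shares were 5.04% in KO and 8.45% in WT for MHC class II high cells, and 8.696% in KO and 8.54% in WT for inflammatory monocytes. Both WT shares were at the keratinocyte background of 8.03%, so the ratios of these 2 subsets are not read as differences in expression. Remaining cells of the class had 276 CPM in KO and 975 in WT (0.283). Subset shares also differed, since MHC class II high cells made up 35.2% of the class in KO and 16.1% in WT, and inflammatory monocytes 9.77% in KO and 28.9% in WT. In cluster 29, of which Cxcl13 is itself a leading gene beside Pf4 and Ccl8, Cxcl13 stood at 1021 CPM in KO and 9137 in WT, and in cluster 24 (Cd74, H2-Aa and Lyz2) at 133 in KO and 617 in WT.

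The libraries differed most at the top of the distribution. Among Mrc1 and Pf4 cells, 130 of 246 KO cells (52.8%) and 149 of 320 WT cells (46.6%) had no Cxcl13 UMI. Between 2 and 4 UMIs were found in 30 KO and 12 WT cells, and between 10 and 29 in 35 KO and 21 WT cells, so KO cells were the more frequent ones there. In contrast, 1 KO cell (143 UMIs) and 63 WT cells had 100 or more, the highest WT cell holding 1118. Those 63 cells held 20005 of the 22443 Cxcl13 UMIs of the WT subset. After thinning, cells with any UMI made up 39.3% in KO and 44.9% in WT, whereas cells with 5 or more made up 18.7% in KO and 37.5% in WT.

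**Figure D3:**
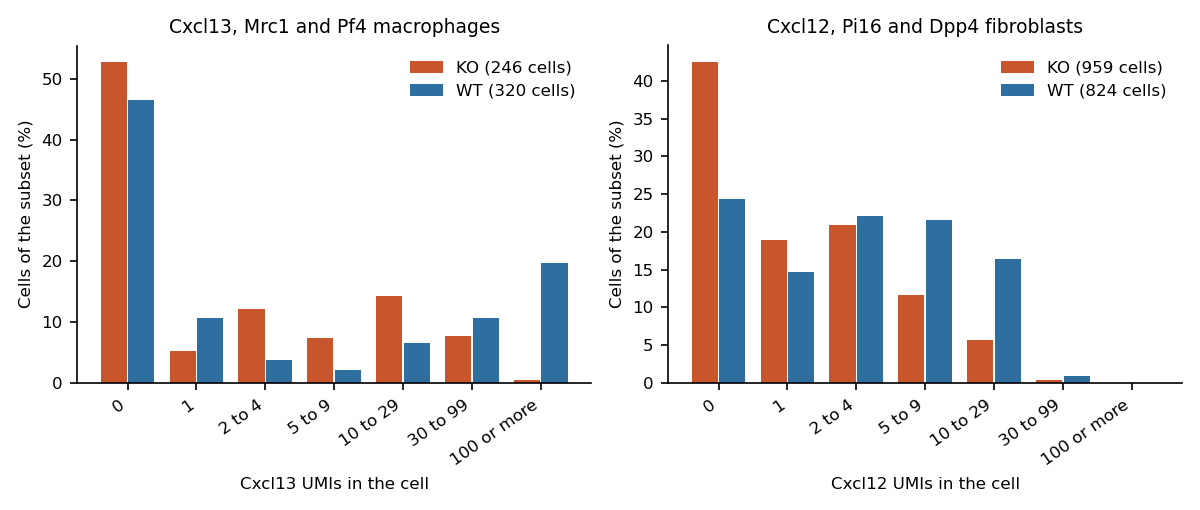
Share of cells (%) by number of UMIs of the gene in the cell, for Cxcl13 in the Mrc1 and Pf4 subset and Cxcl12 in the Pi16 and Dpp4 subset, KO left of WT, unthinned. Cells with 100 or more Cxcl13 UMIs made up 0.407% of the KO and 19.7% of the WT subset, while 42.5% of KO and 24.4% of WT cells had no Cxcl12 UMI.

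Cells of the Mrc1 and Pf4 subset with 10 or more Cxcl13 UMIs had the 10-gene macrophage panel at 15195 CPM in KO and 17795 in WT. In these cells Ccl8, a monocyte-attracting chemokine, stood at 4559 CPM in KO and 11016 in WT, and Saa3, an acute-phase protein, at 492 in KO and 10648 in WT. In cells without a Cxcl13 UMI, Ccl8 had 3112 CPM in KO and 4647 in WT, and Saa3 262 in KO and 5290 in WT. Both genes were thus higher beside Cxcl13 within each library, and lower in KO at either Cxcl13 level. Mmp19 was not higher beside Cxcl13. It had 574 CPM in KO and 794 in WT in the cells with 10 or more Cxcl13 UMIs. In those without a Cxcl13 UMI it had 735 CPM in KO and 805 in WT.

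Fibroblast-like cells held Cxcl13 at 55.4 CPM in KO and 184 in WT, a ratio of 0.301 (0.283 to 0.320). The WT level lay below that of the low-UMI droplets (347 CPM), whereas the KO level lay above it (15.0 CPM). The thinned share of fibroblast-like cells with a UMI was 3.76% in KO and 8.45% in WT, against 0.177% in KO and 8.03% in WT in keratinocyte-like cells, so the WT share was at background and the class ratio is not read as a difference in expression. The Pi16 and Dpp4 subset held most of it, at 154 CPM in KO and 440 in WT (0.349), with thinned shares of 6.91% in KO and 13.5% in WT. Thinned shares were 1.39% in KO and 13.9% in WT in melanocyte-like cells, and 0% in KO and 11.4% in WT in T-like cells. The WT share of the subset was thus near that of these classes and is not read as above background. Few fibroblast-like cells carried many Cxcl13 UMIs. There were 46 KO and 69 WT fibroblast-like cells with 10 or more UMIs, and these held 1073 Cxcl13 UMIs in KO and 3118 in WT. The macrophage panel in those cells was 22.3 CPM in KO and 51.8 in WT, below the 36.7 CPM in KO and 87.6 in WT of fibroblast-like cells without a Cxcl13 UMI. Single genes were mixed. Ccl8 was higher in the rich cells, at 52.1 against 18.9 CPM in KO and 51.8 against 38.6 in WT. Pf4 was higher only in WT (18.5 against 11.4 CPM), and Mrc1 was lower there (1.23 against 5.09 CPM). Whether macrophage RNA contributed to the rich cells was not tested. In cluster 13, common to both libraries, Cxcl13 stood at 273 CPM in KO and 523 in WT (0.522, 0.473 to 0.576).

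In the other plotted classes Cxcl13 was low. Keratinocyte-like cells had 0.835 CPM in KO and 24.0 in WT, and T-like cells had 0 UMIs in KO (under 1.72 CPM at 3 counts) and 65.8 CPM in WT. Melanocyte-like cells had 3.46 CPM in KO and 53.7 in WT. These values lay below those of the low-UMI droplets of the same library, 15.0 CPM in KO and 347 in WT, and are not read as expression. Adipocyte-like cells, only 32 in KO and 15 in WT, had Cxcl13 at 98.6 CPM in KO and 266 in WT.

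Cxcl14 was nearly the same in the 2 libraries in the class that held most of it. Keratinocyte-like cells held 78.8% of its UMIs in KO and 84.1% in WT, at 254 CPM in KO (17644 UMIs, 250 to 258) and 266 CPM in WT (26457 UMIs, 263 to 269). The ratio was 0.955 (0.937 to 0.973). With each cell weighted equally it was 1.07, so the direction depends on the weighting. The share with a UMI after thinning, which left out 11 KO and 176 WT cells, was 26.3% in KO and 33.6% in WT, while the unthinned shares were 59.7% in KO and 61.5% in WT at median depths of 19187.5 UMIs in KO and 12181 in WT. In monocyte/macrophage-like cells, the background class here, the thinned shares were 2.44% in KO and 3.15% in WT (6.98% in KO and 8.21% in WT unthinned).

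By marker subset, the Cxcl14 ratios lay on both sides of 1. Basal cells had 409 CPM in KO and 227 in WT (ratio 1.801, 1.73 to 1.87). Outer follicle cells, scored for Lhx2, Sox9 and other bulge and root sheath genes, had 446 CPM in KO and 869 in WT (0.513, 0.4998 to 0.527). Upper follicle cells had 76.0 CPM in KO and 119 in WT (0.638), and suprabasal cells 38.0 CPM in KO and 53.1 in WT (0.714). The last 2 subsets lay below the low-UMI droplets, 187 CPM in KO and 176 in WT. Thus the outer follicle was highest in both libraries, suprabasal cells were lowest, and basal cells were higher in KO while the other 3 named subsets were lower. Basal cells made up 15.1% of the class in KO and 36.3% in WT, and outer follicle cells 34.0% in KO and 20.05% in WT.

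By cluster, the Cxcl14 ratios of clusters 36, 20 and 41 lay nearer to 1 than those of the basal and outer follicle subsets. Cluster 36 (led by Nppc, Cxcl14, Krt15 and Col17a1) had 1963 CPM in KO and 1948 in WT, a ratio of 1.01 (0.982 to 1.03). As Cxcl14 helped to define that cluster, its level and ratio there are a description and cannot decide on the subset differences. Cluster 20 had 1004 CPM in KO and 877 in WT (1.15, 1.04 to 1.26) from all its 66 KO and 864 WT cells, and cluster 41 (Wfdc18, Cldn3 and Ttr) 545 in KO and 567 in WT (0.961). Clusters with little Cxcl14 were lower in KO in cluster 3 (109 CPM in KO and 176 in WT, 0.616), cluster 2 (21.2 in KO and 42.6 in WT, 0.499) and cluster 39 (19.2 in KO and 34.6 in WT, 0.555). Clusters 1, 28 and 30 had ratios of 0.929, 0.888 and 1.00, with intervals that include 1. The keratinocyte-like class, too, was spread differently, as cluster 20 held 45 of the class's KO and 728 of its WT cells and cluster 3 held 544 in KO and 268 in WT.

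**Figure D4:**
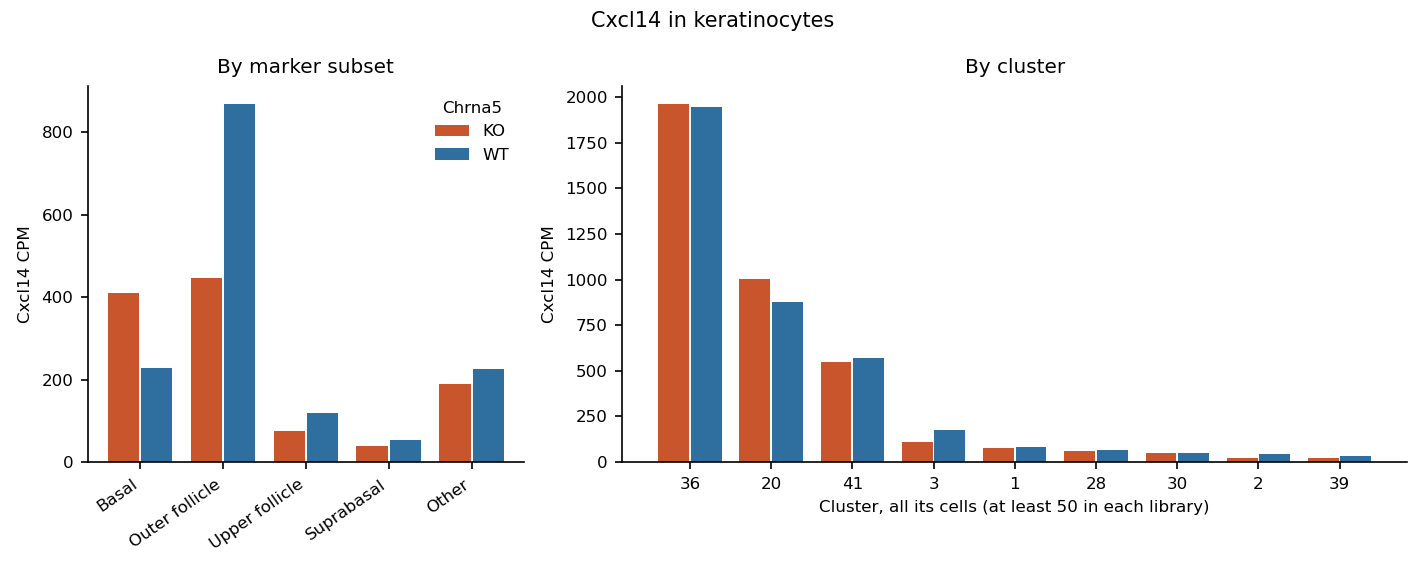
Cxcl14 (CPM, summed UMIs) in keratinocyte-like cells by marker subset (left) and in all cells of each mainly keratinocyte-like cluster with at least 50 cells in each library (right), KO left of WT. Basal cells were higher in KO and outer follicle cells lower. Clusters 36, 20 and 41 had ratios of 1.01, 1.15 and 0.961.

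Schwann-like cells had the highest Cxcl14 level of the 11 plotted classes, 286 CPM in KO (157 UMIs, 243 to 334) and 465 CPM in WT (82 UMIs, 370 to 577), from 173 cells in KO and 45 in WT. In KO this interval overlaps that of keratinocyte-like cells. Droplets in no class had 385 CPM in KO and 294 in WT. Fibroblast-like cells came next with 70.7 CPM in KO and 85.5 in WT (0.827, 0.774 to 0.883), and the dermal papilla subset was highest among them at 96.2 in KO and 157 in WT. These fibroblast class and subset levels lay below the low-UMI droplets, 187 CPM in KO and 176 in WT. The thinned share of fibroblast-like cells with a Cxcl14 UMI was 8.37% in KO and 10.7% in WT. It was thus above the 2.44% in KO and 3.15% in WT of monocyte/macrophage-like cells. In the cluster 12 cells of the dermal papilla subset Cxcl14 stood at 104 CPM in KO and 186 in WT. How much of the fibroblast level came from the suspension was not tested. T-like cells had 67.1 CPM in KO and 19.2 in WT, but 3 KO cells held 81 of the 117 UMIs, and their keratinocyte panel stood at 6083 CPM, against 1216 CPM in KO T-like cells without a Cxcl14 UMI.

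Cxcr4, the signalling receptor of CXCL12, was higher in KO in monocyte/macrophage-like cells, its main class. Monocyte/macrophage-like cells held 40.4% of its UMIs in KO and 63.3% in WT, at 233 CPM in KO (1265 UMIs, 221 to 247) and 122 CPM in WT (993 UMIs, 115 to 130). The ratio was 1.91 (1.76 to 2.08). After thinning, 34.0% of KO (30.5 to 37.7) and 19.9% of WT cells (17.2 to 22.8) had a UMI; unthinned shares were 58.1% in KO and 45.0% in WT. Keratinocyte-like cells, which served as the background, had thinned shares of 0.638% in KO and 0.718% in WT (3.35% in KO and 2.18% in WT unthinned).

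Cxcr4 was higher in KO in each of the 4 macrophage subsets. The Mrc1 and Pf4 subset had 291 CPM in KO and 155 in WT (ratio 1.88), and the MHC class II high subset 195 in KO and 124 in WT (1.58). Inflammatory monocytes had 258 CPM in KO and 97.5 in WT (2.64), and the remaining cells 213 in KO and 94.3 in WT (2.26). Clusters 24 and 29 gave nearly the same ratio, 1.797 and 1.78. In the Mrc1 and Pf4 subset, Cxcr4 was thus higher and Cxcl13 lower in KO.

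The other leukocyte classes did not share one clear direction. Among T-like cells Cxcr4 stood at 116 CPM in KO (101 to 134) and 82.3 in WT (62.8 to 106), a ratio of 1.42 (1.06 to 1.92). The share of T-like cells with a UMI, thinned to 2000 UMIs, was 16.9% in KO (13.4 to 20.8) and 14.6% in WT (9.46 to 21.0), and thinned to 1000 UMIs it was 7.76% in KO and 8.84% in WT, so a difference in T-like cells was not detectable by share. The IL-17-type gamma delta subset, the main IL-17 source in imiquimod-treated mouse skin, had 181 CPM in KO and 98.7 in WT from 131 cells in KO and 37 in WT. Alpha beta cells had 125 CPM in KO and 105 in WT, and other gamma delta cells 21.9 in KO and 25.5 in WT, each with overlapping intervals. The other gamma delta cells were thus lowest of the 3 named subsets in both libraries. Next to T-like cells, Langerhans-like cells had 101 CPM in KO and 62.7 in WT, with overlapping intervals, and vascular endothelial-like cells 50.6 in KO and 18.2 in WT, with intervals that did not overlap. NK-like cells lay the other way, at 175 CPM in KO and 273 in WT from 17 cells in KO and 14 in WT, with overlapping intervals. Mast-like cells had 1 Cxcr4 UMI in KO and 2 in WT.

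Fibroblast-like cells gave the largest Cxcr4 ratio of the classes compared, 8.42 (6.82 to 10.51), at 39.0 CPM in KO (1027 UMIs) and 4.63 CPM in WT (95 UMIs). The signal sat in 2 small subsets. Fmod and Tnmd cells had 176 CPM in KO (393 UMIs in 362 cells) and 22.0 CPM in WT (15 UMIs in 100 cells), a ratio of 7.99 (4.79 to 14.4). Dermal papilla cells had 65.7 CPM in KO (561 UMIs) and 12.6 in WT (38 UMIs), a ratio of 5.22, and 500 of these KO UMIs lay in its 142 cells of cluster 12. Without the dermal papilla subset the class ratio was 8.04 (6.10 to 10.8). The Pi16 and Dpp4 subset had 5.16 CPM in KO and 2.60 in WT, and cells in no subset 4.37 in KO and 2.43 in WT, low levels in both libraries. All of these lay below the low-UMI droplets, 27.1 CPM in KO and 11.04 in WT. Fmod and Tnmd cells made up 11.6% of the class in KO and 3.74% in WT. Over the whole class the thinned share was 4.42% in KO and 0.595% in WT, and the WT value is at the background level of keratinocyte-like cells. Within Fmod and Tnmd cells it was 22.4% in KO (18.0 to 27.2) and 4.35% in WT (1.20 to 10.8).

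In the Fmod and Tnmd subset the macrophage panel was at a similar low level in cells with and without Cxcr4. Its Cxcr4-positive cells had the fibroblast panel at 11050 CPM in KO and 12621 in WT, the macrophage panel at 28.6 in KO and 79.6 in WT (27.2 in KO and 87.8 in WT in those without a Cxcr4 UMI) and the pan-leukocyte gene Ptprc at 0 CPM in both libraries. The dermal papilla subset was less uniform. Its 150 Cxcr4-positive KO cells had a median of 45076.5 UMIs and the fibroblast panel at 646 CPM, against 4630.5 UMIs and 6644 CPM in the 272 KO cells without a Cxcr4 UMI. They therefore differ from the rest of that subset in depth and in fibroblast genes, and whether they are fibroblasts was not tested. In the WT library 26 such cells had a median of 16542.5 UMIs and the panel at 1071 CPM. By cluster, Cxcr4 stood at 266 CPM in KO and 47.2 in WT in cluster 42 (Fmod, Coch and Aspn), and at 70.7 in KO and 12.5 in WT in cluster 12 (Serpine2, Dio2 and Pappa2); these clusters held 31 and 46 WT cells. In cluster 22 it stood at 57.6 CPM in KO and 16.2 in WT (3.55, 1.796 to 7.99).

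Ackr3, which takes up CXCL12, was highest in lymphatic endothelial-like cells and level there, with 477 CPM in KO (603 UMIs, 440 to 517) and 445 CPM in WT (136 UMIs, 373 to 526). These came from 117 cells in KO and 59 in WT. Fibroblast-like cells were second and held 60.04% of its UMIs in KO and 66.1% in WT. They had 78.2 CPM in KO (2058 UMIs) and 52.4 CPM in WT (1075 UMIs), a ratio of 1.49 (1.39 to 1.61). The thinned share was 13.1% in KO (11.9 to 14.3) and 8.73% in WT (7.65 to 9.90), against 27.3% in KO and 19.9% in WT unthinned. In monocyte/macrophage-like cells, a class with little Ackr3, the thinned share was 0.287% in KO and 0.252% in WT.

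In the 2 subsets richest in Cxcl12, Ackr3 was higher in KO. Pi16 and Dpp4 cells had 123 CPM in KO and 61.3 in WT (ratio 2.00, 1.77 to 2.26), and cells in no subset 109 in KO and 57.2 in WT (1.90). Fmod and Tnmd cells were level at 53.8 CPM in KO and 54.4 in WT, and dermal papilla cells had 18.6 in KO and 16.2 in WT, with overlapping intervals. Outside cluster 12 the dermal papilla cells had 57.7 CPM in KO and 28.0 in WT (2.06, 1.39 to 3.105), and without that subset the class ratio was 1.82 (1.69 to 1.97). Within clusters, the ratio was 3.12 (2.42 to 4.04) in cluster 23, 1.60 in cluster 13, 1.27 in cluster 8 and 1.11 in cluster 22, where the interval includes 1. Keratinocyte-like cells had less, 5.56 CPM in KO and 1.99 in WT (2.79, 2.35 to 3.33). Both values are below the level of the low-UMI droplets, 12.0 CPM in KO and 10.3 in WT.

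Set side by side, the CXCL12 axis in fibroblast-like cells had less ligand and more of both receptors in KO, with ratios of 0.393 for Cxcl12, 8.42 for Cxcr4 and 1.49 for Ackr3. Of the 1027 KO Cxcr4 UMIs behind the second ratio, 561 lay in the dermal papilla subset, most of them in cells whose class is in doubt, and without that subset the 3 ratios were 0.498, 8.04 and 1.82. The differences had unlike sizes by subset. In the Pi16 and Dpp4 subset the ratios were 0.579, 1.98 and 2.00, and in the Fmod and Tnmd subset 0.155, 7.99 and 0.9896. The Cxcr4 ratio of 1.98 rests on 5.16 CPM in KO and 2.60 in WT, below the low-UMI droplets (27.1 in KO and 11.04 in WT). Its thinned shares, 0.957% in KO and 0.252% in WT, were near the keratinocyte background of 0.638% in KO and 0.718% in WT. That ratio is not read as a difference in expression. Markers of other cells moved too. Over the whole class the macrophage panel (10 of 10 genes detected in each library) was 36.4 CPM in KO and 86.3 in WT, and the keratinocyte panel (10 of 10) 582 CPM in KO and 1315 in WT. In monocyte/macrophage-like cells the keratinocyte panel was 701 CPM in KO and 1315 in WT. Their part in the ratios was not tested.

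The 5 gene lists around these chemokines were counted at a 2-fold difference, among genes with at least 20 UMIs in the class, and set beside all genes of the class. In fibroblast-like cells 8.31% of all 13518 genes were higher in KO by that margin and 4.31% lower, with a median log2 ratio of 0.15. The partners and regulators of CXCR4 and ACKR3 gave 1 higher and 2 lower of 21, with a median log2 ratio of 0.14, close to that of all genes. Rgs16, which shortens G protein signals, had 7.52 CPM in KO and 3.02 in WT (ratio 2.49), and Calcrl, the receptor that binds adrenomedullin with RAMP proteins, 76.5 in KO and 198 in WT (0.386). Hmgb1, which can form a complex with CXCL12, had the highest level, at 601 CPM in KO and 625 in WT. Dpp4, a protease that inactivates CXCL12, had 17.3 CPM in KO and 10.2 in WT (1.69).

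The list of the CXCL13, CXCR5 and lymphotoxin circuit gave 1 higher and 4 lower of 16 in fibroblast-like cells, with a median log2 ratio of 0.04. Tnfsf11, the cytokine RANKL, was lowest, at 0.114 CPM in KO and 2.29 in WT from 3 UMIs in KO and 47 in WT (0.0497, 0.00990 to 0.155), and Ltb was highest (2.89) from 26 UMIs in KO and 7 in WT. Tnfrsf1a had 133 CPM in KO and 125 in WT. Cxcr5, the receptor for CXCL13, had only 4 UMIs in each whole library, so its cells cannot be described at this depth. Other chemokine receptors gave 0 higher and 3 lower of 7, with a median of -0.42. Ackr1, an atypical receptor of vessels and red cells, had 22.2 CPM in KO and 54.5 in WT (0.407), Ackr2 had 14.7 in KO and 9.75 in WT (1.504), and Ccr1 gave 3 UMIs in KO and 38 in WT.

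Other CXC chemokines of fibroblast-like cells gave 0 higher and 1 lower of 8, with a median log2 ratio of -0.78, against 0.15 over all genes. The neutrophil-attracting Cxcl2 had 1483 CPM in KO and 2599 in WT (0.570), and Cxcl1 1873 in KO and 2033 in WT. Pf4 was the lowest, at 2.70 CPM in KO and 11.6 in WT (0.232), and it is a marker of macrophages and platelets. Cxcl9 had 29 UMIs in KO and 12 in WT (1.88). The heparan sulphate list, whose proteins hold chemokines at cell surfaces, gave 2 higher and 0 lower of 15, with a median of 0.03. Gpc6 had 11.9 CPM in KO and 3.85 in WT (3.09), Sdc4 1243 in KO and 949 in WT, and Ext2 was lowest with a ratio of 0.611.

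In monocyte/macrophage-like cells the background was 4.44% of 10728 genes higher and 3.9% lower, with a median log2 ratio of 0.06. CXCR4 and ACKR3 partners gave 0 of 20 in either direction, and the heparan sulphate list 0 of 12, with medians of -0.01 and -0.10. Cd74, which with CXCR4 binds the cytokine MIF, had 4263 CPM in KO and 2598 in WT (1.64) and is also a leading gene of cluster 24. Rgs16 had the highest ratio of that list (1.90) and Hif1a, a hypoxia factor, the lowest (0.756). In the heparan sulphate list Sdc4 had 382 CPM in KO and 537 in WT, and the ratios reached 1.75 for Agrn and 0.613 for Sdc1. The CXCL13 circuit gave 0 higher and 3 lower of 13 (median -0.06), among them Ccl21a, a chemokine of lymphatic vessels, at 4.06 CPM in KO and 20.5 in WT (0.198). Tnfrsf1b had 190 CPM in KO and 199 in WT and Bcl6 the highest ratio (1.59). Chemokine receptors gave 1 higher and 2 lower of 6 (median -0.67), with Ccr1 at 93.5 CPM in KO and 264 in WT (0.354) and Ccr7 lowest (0.242). Cxcr6 rested on 23 UMIs in KO and 2 in WT (17.3, 4.26 to 151). Other CXC chemokines gave 2 higher and 2 lower of 8 (median -0.66), with Cxcl2 at 2630 CPM in KO and 6496 in WT (0.405) and Cxcl5 at 4.61 in KO and 0.737 in WT (6.25).

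Keratinocyte-like cells had 6.16% of 15315 genes higher and 5.45% lower, with a median log2 ratio of 0.04. The CXCR4 and ACKR3 partners gave 1 higher and 0 lower of 21 (median -0.05), the CXCL13 circuit 0 and 3 of 16 (-0.03), and the heparan sulphate list 0 and 0 of 15 (-0.07). Hmgb1 had 834 CPM in KO and 1229 in WT, and the ratios of its list ran between 0.542 for Ramp2 and 2.13 for Rgs16. In the CXCL13 circuit Tnfrsf1a had 84.0 CPM in KO and 69.9 in WT, Bcl6 the highest ratio (1.68) and Ccr7 the lowest (0.195). Sdc4 had 1234 CPM in KO and 988 in WT, and the heparan sulphate ratios ran between 0.750 for Sdc2 and 1.57 for Gpc6. Chemokine receptors gave 3 higher and 4 lower of 11 (-0.92), with Cx3cr1 at 9.57 CPM in KO and 2.95 in WT (3.24) and Ccr1 at 0.144 in KO and 1.78 in WT (0.0809), and such low levels can include RNA of other cells. Other CXC chemokines gave 0 higher and 4 lower of 8 (-0.66). Cxcl3, a neutrophil attractant, had 2.45 CPM in KO and 18.0 in WT (0.136), Cxcl1 had 176 in KO and 107 in WT (1.65), and Cxcl16 was level at 287 in KO and 297 in WT. T-like cells had 7.16% of 7638 genes higher and 2.93% lower, and over their 5 lists 1 gene was higher, Cxcl1 (104 CPM in KO and 43.9 in WT, 2.38), and 1 lower, Cxcl3 (23.0 CPM in KO and 111 in WT, 0.207). The most abundant list genes of T-like cells were nearly level, with Rgs1, an inhibitor of chemokine receptor signalling, at 4081 CPM in KO and 4179 in WT, Cxcr6 at 841 in KO and 838 in WT, and Cxcl2 at 757 in KO and 719 in WT. Tnfrsf1b had 242 CPM in KO and 181 in WT and Sdc4 323 in KO and 269 in WT. Within single lists other than the CXC chemokines, the highest ratios were 1.67 for Grk3, 1.71 for Bcl6, 1.49 for Ccr6 and 1.98 for Sdc1, and among the lowest were 0.774 for Cd74, 0.649 for Tnfsf11 and 1.03 for Ext1.

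**Figure D5:**
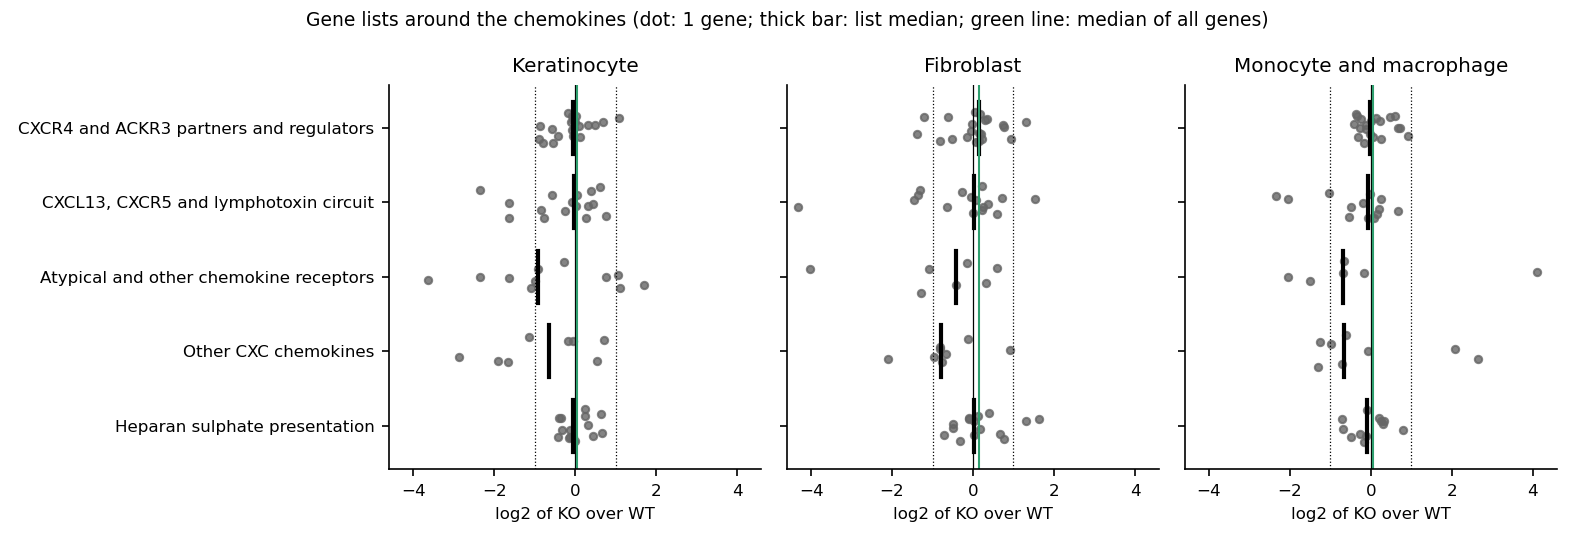
Log2 ratio of KO over WT for each measured gene of the 5 lists in keratinocyte-like, fibroblast-like and monocyte/macrophage-like cells. Dots are genes, thick bars list medians, the green line the median of all genes and dotted lines 2-fold either way. The medians of the other CXC chemokines lay at -0.66, -0.78 and -0.66, and those of the CXCR4 and ACKR3 partners at -0.05, 0.14 and -0.01.

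Genes whose levels over the classes were most like each chemokine gene were found by Pearson's r of log2(CPM + 1) over 14 sums, 7 classes in 2 libraries, among 5515 genes. These sums share libraries and differ in depth, so r is a description. Cxcl12 was most like Atp8b1, a phospholipid flippase subunit (r = 0.970), followed by Cnih1, Cald1, Nsun2 and Slit3 (0.905). In fibroblast-like cells Atp8b1 had 138 CPM in KO and 219 in WT, while vascular endothelial-like cells had 71.5 in KO and 75.2 in WT. Cxcl13 was most like Saa3 (0.924), then Ccl8, Mmp19 and Wfdc17 (0.851). For Saa3 the macrophage class had 141 CPM in KO and 3383 in WT, while fibroblast-like cells had 263 in KO and 3715 in WT, so it differed from Cxcl13 in which class was higher.

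Cxcl14 was most like Cep170b (0.885), then Map1lc3a, Dennd2c, Fdft1 and Efna5 (0.869). Cxcr4 was most like S100a4 (0.905), then Pik3r5, Pou2f2, Rcbtb2 and Cd83 (0.866), yet S100a4 had 981 CPM in KO and 1412 in WT in monocyte/macrophage-like cells, the opposite direction to Cxcr4. Ackr3 was most like Ackr2, another scavenging chemokine receptor (0.966), then Igfbp5, Tmtc1, Dlg1 and Gpm6a (0.945). Ackr2 had 199 CPM in KO and 173 in WT in lymphatic endothelial-like cells. It therefore shared with Ackr3 both the highest class and the second, fibroblast-like cells. Among the 5 genes themselves, r ran between -0.58 for Cxcl14 with Cxcr4 and 0.39 for Cxcl12 with Ackr3.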

How the data were processed

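Values are raw UMI counts as the authors deposited them, with 1 row per gene and 1 column per barcode and no scaling, seen from whole numbers that sum differently in each library. Per the submitters' processing notes, the tools were Cell Ranger 3.0.2 and Seurat 3.0 and the build mm10; software version 3.1.0 stands in the matrix header. The sources used here do not say how barcodes were chosen for deposit.

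Barcodes were kept from 200 detected genes upwards if mitochondrial genes took no more than 10% of UMIs (94.0% of KO and 95.7% of WT barcodes). Each cell was assigned to the class whose marker panel passed a fixed share of its UMIs, with at least 2 markers and at least 2 times the next class. The keratinocyte-like class also required at least 40 UMIs of its panel, so shallow keratinocytes could be left without a class. Thresholds were set after the data were seen. Within 1.5-fold of its threshold lay 1.59% of KO and 0.587% of WT keratinocyte-like cells, 3.03% and 1.83% of fibroblast-like cells, 0.888% and 0.756% of monocyte/macrophage-like cells and 5.71% and 2.76% of T-like cells. Subsets took the panel furthest above the class mean. Clusters came from Leiden at resolution 1.5 on both libraries together, without batch correction. Scrublet called 67 KO and 0 WT cells, so it did not work and doublets remain; an alternative removed the 891 KO and 1623 WT cells with the highest scores.

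UMIs were summed per class and library and scaled to CPM. Intervals are exact at 95% (Poisson for levels, Clopper-Pearson for shares, conditional for ratios) and cover counting error only. A count of 0 was set against 3 counts. Class ratios need at least 100 cells in both libraries and cluster ratios at least 50; subset ratios are given with smaller numbers. Shares were thinned to 2000 UMIs per cell. There is no test between genotypes, since cells are not replicates. The 5 genes and the lists were chosen with earlier results of these data known. Besides the 5 genes, the text names from each list the gene of the most CPM and the extremes of the ratio in either direction among genes with at least 20 UMIs, plus Cxcr5, Cxcl11 (not measured here) and Dpp4, and for each gene the 5 with the highest correlation over class sums. Of the genes this rule names, 2 are not reported here. A few further genes were chosen after their values were seen, as were the cells grouped by UMIs of a gene and the split of the dermal papilla cells by cluster. The class ratio, its interval and the 2-fold cut were tested on counts simulated from the fibroblast class sums with counting error alone. Marker gate, subsets, clusters, thinning and correlations were not tested in that way. Sequences are from RefSeq, where all 5 symbols were found. The first bases after the RefSeq start occurred in a GENCODE transcript for Cxcl12, Cxcl14 and Ackr3, but not for Cxcl13 and Cxcr4. The Cxcl13 window ends at 95956938, somewhat before the GENCODE start at 95956951. Python 3.11.15, NumPy 2.4.6, pandas 2.3.3, SciPy 1.17.1, Scanpy 1.11.5, leidenalg 0.10.2 and matplotlib 3.10.9 were used.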

Additional observations from a re-analysis of the deposited data

Results flagged for a closer look

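Within keratinocyte-like cells the Cxcl14 ratio of KO over WT was 1.801 in basal cells, against 0.513 in outer follicle, 0.714 in suprabasal and 0.638 in upper follicle cells. The subsets thus lay on opposite sides of 1, and the difference between them was not tested. Among cells of which the first subset score was clearly above the second, basal cells had a ratio of 2.33 and outer follicle cells 0.404. In clusters 36, 20 and 41, which had the most Cxcl14, the ratios were 1.01, 1.15 and 0.961. Cxcl14 helped to define cluster 36, so these ratios are a description and cannot decide on the subset differences.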

How the results depend on the processing

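No paired analysis was possible because each genotype has 1 library. Of 57 alternatives to the 6 class ratios, 33 stayed within the interval of the reported ratio, 23 lay outside it and 1 crossed 1; the causes were not tested. The Cxcl14 ratio in keratinocyte-like cells (0.955) became 1.07 with each cell weighted equally, and was 0.989 in classes from clusters, 0.924 with median-ratio scaling, 0.776 with subsets weighted equally and 0.912 without the 10 richest cells per library, an alternative chosen after seeing the data. The Cxcl13 ratio in monocyte/macrophage-like cells (0.147) was 0.1387 without the highest doublet scores, 0.169 by equal cell weight, 0.1391 with median-ratio scaling, 0.177 by equal subsets and 0.154 without the richest cells. For Cxcl12 in fibroblast-like cells (0.393) these were 0.371 in classes from clusters, 0.444 with the stricter gate, 0.501 by equal cell weight, 0.359 with median-ratio scaling, 0.449 by equal subsets, 0.379 without the richest cells and 0.498 without the dermal papilla subset (also chosen after seeing the data). Cxcr4 in fibroblast-like cells (8.42) was 11.2 in classes from clusters, 6.34 by equal subsets and 10.9 without the richest cells. Ackr3 in fibroblast-like cells (1.49) was 1.65 with the stricter gate, 1.90 by equal cell weight, 1.36 with median-ratio scaling and 1.82 without the dermal papilla subset. Cxcr4 in monocyte/macrophage-like cells (1.91) lay between 1.805 and 2.03. At 1.5-fold instead of 2-fold, 13 list entries were higher and 19 lower in fibroblast-like cells (4 and 10 at 2-fold), 11 and 18 in keratinocyte-like cells (4 and 11), 9 and 14 in monocyte/macrophage-like cells (3 and 7) and 6 and 3 in T-like cells (1 and 1). With a minimum of 100 UMIs per gene instead of 20, the higher entries were 0 in monocyte/macrophage-like and 2 in keratinocyte-like cells, and the other 6 counts stayed within 1.5 times. Of 127 alternatives to the other values, 63 stayed and 64 moved. Among these values only the subset ratios could cross 1, and none did. A side of 1 has no meaning for the levels, shares and counts.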
